A study of Mus musculus with 24 samples.

Results

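The genes described here encode ligands, receptors, SMAD proteins, inhibitors and targets of the TGF-β and BMP pathways. They were chosen by name from a list of 41 genes, and 32 of the 41 had a row among the 18762 genes in the table of normalized read counts. *Bmpr1a*, *Acvr1b*, *Tgfb3*, *Inhba*, *Bmp1*, *Bmp4*, *Bmp6*, *Id2* and *Id4* were not analysed here. The values come from RNA-seq of LSK-SLAM cells, which were sorted from bone marrow to enrich haematopoietic stem cells (HSCs): of the Lin- Sca-1+ c-Kit+ cells, those that were CD150+ and CD48-. All mice were wild type (WT) on the C57BL/6 background. The young group held 5 mice, which the labels place at 4 to 5 months of age, and the old group held 7 mice placed at 20 to 22 months. A legend in the study's supplement gives other ages for RNA-seq of these cells, and the ages of the labels are used here. RNA from 15000 cells per mouse was depleted of ribosomal RNA, and 300 pg went into a library kit made for small inputs. The labels list 24 samples, 2 for each of the 12 mice, and the deposited table has 1 column per mouse, so that each mouse was counted once.

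TGF-β and BMP ligands bind a pair of type I and type II receptor kinases, and the type I receptor phosphorylates receptor SMADs, which enter the nucleus together with SMAD4. SMAD2 and SMAD3 mainly carry TGF-β and activin signals, SMAD1 and SMAD5 mainly carry BMP signals, and SMAD6, SMAD7, the SMURF ubiquitin ligases and the SKI family restrain the pathway. TGF-β is made as a latent complex that latent TGF-β binding proteins hold in the extracellular matrix, and in bone marrow it is known as a signal that keeps HSCs quiescent.

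Each value is a normalized read count, which is a gene's reads divided by a scaled library size. Recovered reads per mouse ranged from 2.05 to 5.12 M in young mice and from 0.861 to 5.00 M in old mice, and 3 reads were worth a normalized read count between 0.583 and 3.69 depending on the mouse. Mouse labels close with an A or a B, a letter whose meaning was not given in the sources used here. Of the 6 mice with letter A (0.861 to 3.11 M reads), 2 were young and 4 old, and of the 6 with letter B (3.23 to 5.12 M reads), 3 were young and 3 old. Because letter and depth separated completely, an effect of the letter and an effect of depth cannot be told apart, and age was tested both alone and together with the letter. Old mice 5 and 7, both of letter A, had the fewest reads and stood apart in *Kit*, the gene of a receptor used in the sort, which was at 546 and 853 in them and at 1147 or more in the other 10 mice. In other genes of the sort old mouse 7 did not stand apart: *Slamf1*, which encodes CD150, was at 42.6 in old mouse 5 and 89.8 in old mouse 7, against 64.2 or more in the other 10, and *Procr* and *Ptprc* were likewise below the others only in old mouse 5. In bulk RNA, fewer cells of a type and less RNA per cell cannot be told apart.

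Compared per kilobase of exon, which allows genes of different length to be set side by side, *Eng* had the highest level of the 32 genes. *Eng* encodes endoglin, a co-receptor for TGF-β and BMP ligands, and its mean level was 76.2 normalized reads per kb ± 27.7 (SD, n = 12). The SMAD repressor *Ski* followed at 43.5 ± 13.5, then the common SMAD gene *Smad4* at 38.1 ± 11.8, *Smad3* at 34.5 ± 9.62 and the betaglycan gene *Tgfbr3* at 32.1 ± 8.89. The SDs of these 4 neighbours were larger than the steps between their means. Of the 32 genes, 15 had a mean level above 10 per kb, and 11 lay below 5 per kb. The genes below 5 were the ligand genes *Tgfb2*, *Bmp2* and *Bmp7*, the matrix gene *Ltbp1*, the type I receptor genes *Acvr1*, *Acvrl1* and *Bmpr1b*, the pseudoreceptor gene *Bambi*, the inhibitory SMAD gene *Smad6*, and the target genes *Id1* and *Id3*. All 32 genes had at least 1 read in every mouse, and the median over the 12351 tested genes with a length was 8.15 per kb.

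The genes also differed in how evenly they were detected. *Smurf1* varied least, with a coefficient of variation of 13.1% over the 12 mice and a ratio of 1.51 between its highest and lowest mouse. *Smurf2* (14.7%), *Tgfbr2* (16.8%) and *Tgfbr1* (17.3%) came next, so that both ubiquitin ligases and both TGF-β receptor kinases were the 4 steadiest genes. *Id1* (87.0%), *Id3* (85.3%), *Acvrl1* (83.6%) and *Bmpr1b* (79.2%) varied most, and all 4 lay below 5 per kb. The plot of levels by role shows this as tight columns of points for *Tgfbr1*, *Tgfbr2*, *Smurf1* and *Smurf2* and wide ones for the low genes.

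**Figure D1:**
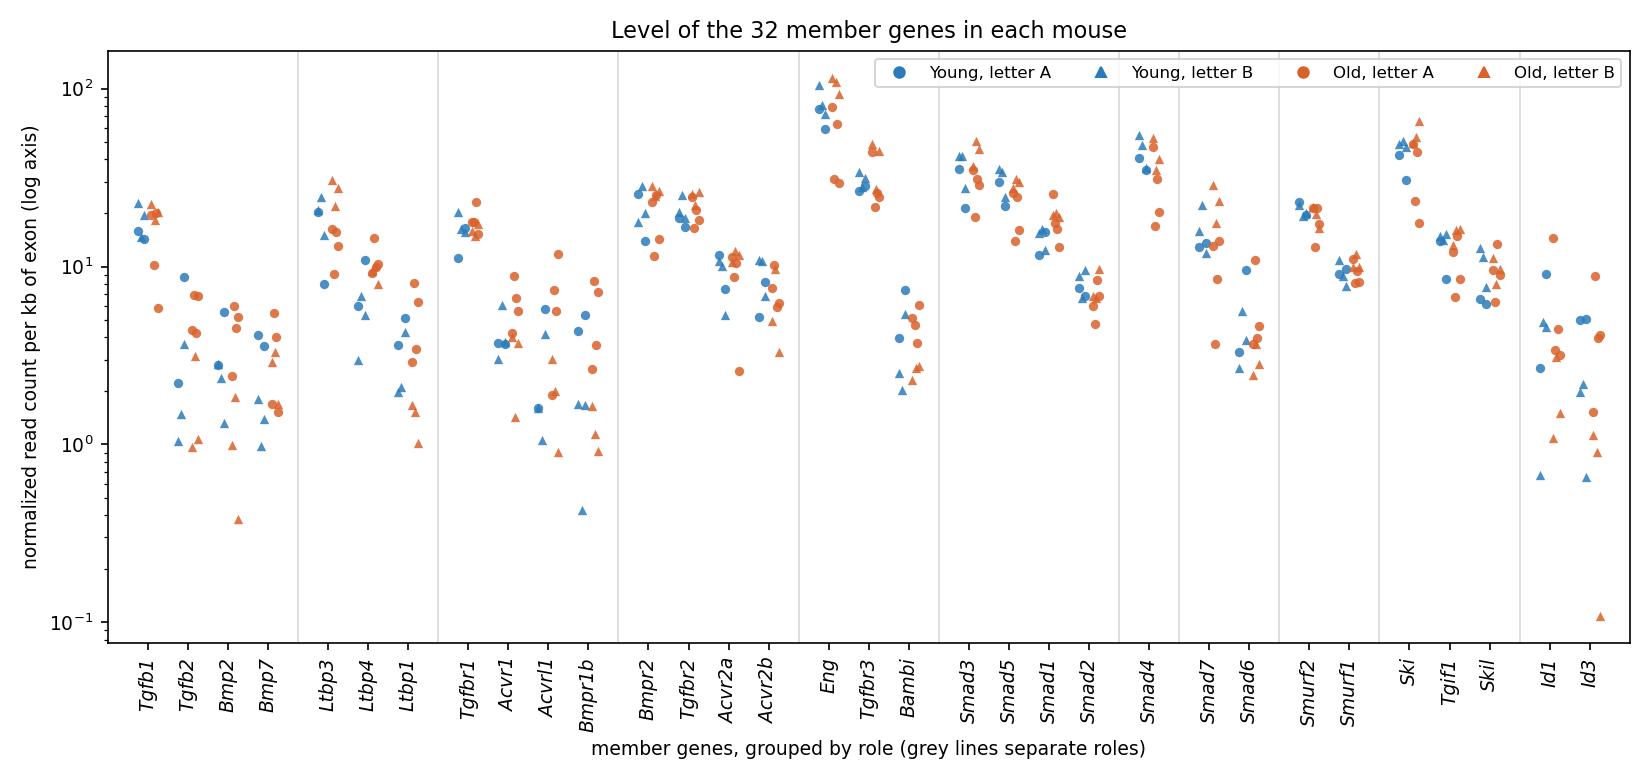
Each point is 1 mouse, with the normalized read count per kb of exon on a log axis and the 32 genes grouped by role along the x axis; blue marks young mice, orange old mice, circles letter A and triangles letter B. *Eng* stood highest at a mean of 76.2 per kb, and among the low genes such as *Tgfb2* and *Bmpr1b* the circles lay mostly above the triangles.

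For 4 of these genes the bases upstream of the start are shown, because *Ltbp4* and *Smad1* had the smallest p-values for age in the model with letter, while *Eng* and *Tgfb2* stand for the genes higher and lower in letter B. The sequences are from RefSeq on GRCm38.p6, which is the mm10 build the labels name, and 22 of the 32 genes had an entry there. They are written 5′ to 3′ on the strand of the gene and end where the annotated exons begin. *Ltbp4* is shown from chr7:27337693-27337862 (minus strand), *Smad1* from chr8:79399519-79399678 (minus strand), *Eng* from chr2:32646345-32646594 (plus strand) and *Tgfb2* from chr1:186705990-186706239 (minus strand). Capitals mark CAGAC or its reverse complement GTCTG, the short letters that SMAD3 and SMAD4 are known to bind.
Ltbp4: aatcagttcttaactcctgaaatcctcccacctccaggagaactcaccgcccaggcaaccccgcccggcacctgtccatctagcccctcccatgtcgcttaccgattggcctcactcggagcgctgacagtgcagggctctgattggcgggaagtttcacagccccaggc
Smad1: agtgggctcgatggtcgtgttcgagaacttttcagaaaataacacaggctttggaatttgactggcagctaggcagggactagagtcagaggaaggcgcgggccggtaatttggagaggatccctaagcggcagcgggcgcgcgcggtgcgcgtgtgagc
Eng: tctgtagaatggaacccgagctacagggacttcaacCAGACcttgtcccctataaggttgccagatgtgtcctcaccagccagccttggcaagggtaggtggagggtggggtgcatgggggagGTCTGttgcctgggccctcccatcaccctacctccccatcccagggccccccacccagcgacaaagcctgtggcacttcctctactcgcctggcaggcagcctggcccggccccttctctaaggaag
Tgfb2: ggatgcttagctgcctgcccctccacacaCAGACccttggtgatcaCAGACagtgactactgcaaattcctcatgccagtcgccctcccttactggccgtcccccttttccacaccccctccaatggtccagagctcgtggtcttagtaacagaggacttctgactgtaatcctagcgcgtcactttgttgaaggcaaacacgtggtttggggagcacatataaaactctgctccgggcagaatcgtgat
*Eng* and *Tgfb2* each held 2 such matches in the RefSeq window of 300 bases (250 before the start and 50 after it), and *Ltbp4* and *Smad1* held 0. *Ltbp4* had 3 such windows, of which only the most upstream was shown and counted, and the other genes shown had 1 each. Over all 32851 windows of that length, 49.6% had at least 1 match on either strand. The BMP-type motif GGCGCC, its own reverse complement, was in 11.9% of all windows and in 0 of these 4. These windows differed in CpG dinucleotides, with 31 in *Smad1*, 19 in *Ltbp4*, 10 in *Tgfb2* and 6 in *Eng*, against a median of 7 over all windows.

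To ask whether the pathway changed with age, old mice were compared with young mice over the 12354 genes with a mean normalized read count of at least 10, among them 30 of the 32 genes (*Id1* and *Id3* lay below). With limma and Benjamini-Hochberg adjustment, 0 of the 30 genes passed an adjusted p of 0.05, where 0.105% of all genes tested did. At an unadjusted p under 0.05 there was 1 of 30, *Ltbp4*, against 3.95% of all genes. With the letter in the model, 0 of 30 passed the adjusted threshold (0.299% of all genes) and 2 of 30 had an unadjusted p under 0.05, *Ltbp4* and *Smad1* (5.2% of all genes). The count tests on recovered reads, edgeR's quasi-likelihood test and DESeq2, also called 0 of the 30, each with *Ltbp4* and *Smad1* at an unadjusted p under 0.05. The median log2 fold change of the 30 genes was 0.03, beside -0.02 over all genes, with 16 genes above 0 and 14 below. In 0 of the 30 did the young and old values separate without overlap, beside 0.461% of all genes.

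The intervals limit how large an age change these data leave room for. In 22 of the 30 genes (73.3%) the 95% interval of the log2 fold change lay between -1 and 1, so that a change of 2-fold or more fell outside it, and this held for 58.3% of all genes tested. With the letter in the model the interval lay within these bounds in 24 of the 30 (80.0%) and in 69.8% of all genes. The 6 genes whose interval still reached past a 2-fold change were *Ltbp4* and the low genes *Bmp2*, *Bmp7*, *Ltbp1*, *Acvrl1* and *Smad6*.

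**Figure D2:**
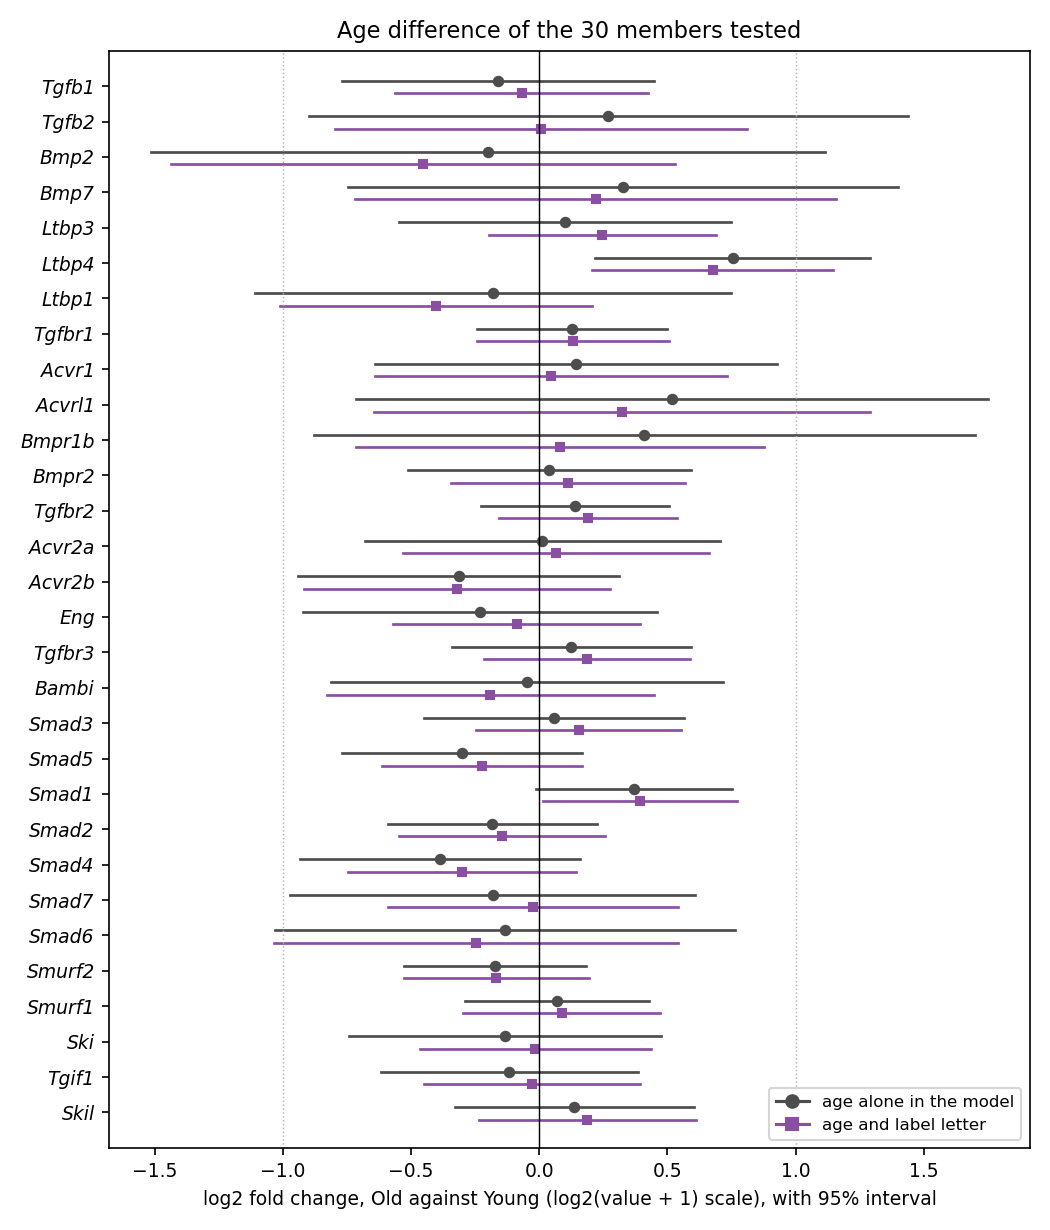
Points give the log2 fold change of old against young mice for the 30 genes tested and lines its 95% interval, in grey for age alone and in purple with the letter in the model; dotted lines mark a 2-fold change. The median of the grey points is 0.03, *Ltbp4* lies furthest to the right at 0.75 and 0.68, and the grey intervals are widest for *Bmp2*, *Acvrl1* and *Bmpr1b*.

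Among the ligand genes, *Tgfb1* had the highest level at 16.99 per kb, while *Tgfb2*, *Bmp2* and *Bmp7* lay between 2.71 and 3.72 per kb. In the 5 young mice *Tgfb1*, which encodes the TGF-β1 precursor, had normalized read counts of 80.3, 72.1, 114, 74.2 and 98.4, and in the old mice they ran from 29.5 over a median of 98.5 to 113. The ages overlapped throughout, and the 2 old mice below every young mouse were old mice 5 and 7. Its log2 fold change was -0.16 ± 0.29 (SE) with a 95% interval from -0.77 to 0.45, and without old mice 5 and 7 it was 0.23, so that the sign rested on those 2 libraries. The other ligand genes gave log2 fold changes between -0.20 for *Bmp2* and 0.33 for *Bmp7*, and their intervals together spanned -1.51 to 1.44.

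*Ltbp4* encodes a latent TGF-β binding protein, one of the matrix proteins that store latent TGF-β. Its normalized read counts were 38.9, 70.2, 19.2, 44.0 and 34.4 in young mice and ran from 51.3 over a median of 64.2 to 93.9 in old mice. Every old mouse lay above 4 of the 5 young mice, and young mouse 2 lay above 6 of the 7 old ones. The means were 41.3 ± 18.6 (SD, n = 5) and 66.0 ± 13.3 (SD, n = 7), and the log2 fold change was 0.75 ± 0.26 (SE), with a limma p of 0.00858 and a Benjamini-Hochberg adjusted p of 0.78. A two-sided exact permutation test over the 792 splits of the 12 mice into 5 and 7 gave p = 0.0114, and over the 300 splits within letters p = 0.0267. Within letter A it was 0.41 and within letter B 0.91, and it was 0.64 without old mice 5 and 7. Young mouse 2 was the only source of overlap, so the 2 ages separate once it is left out. The log2 fold change was then 0.97, with a limma adjusted p of 0.183. That was the highest of its 44 alternatives, of which the lowest was 0.41. Young mouse 2 was singled out for its overlap, so neither the separation nor the smaller p stands as a separate test.

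The other latent TGF-β binding protein genes gave different values. *Ltbp3* had 183, 72.1, 189, 223 and 137 normalized reads in young mice and 82.9 to 277 in old mice (median 148), with a log2 fold change of 0.10 ± 0.31 (SE). The old range contained all young values but the lowest, that of young mouse 2. *Ltbp1*, with a level below 5 per kb, gave -0.18 ± 0.44 (SE), or -0.40 ± 0.30 with the letter in the model. It gave 0.14 within letter A, -0.89 within letter B and -0.71 without old mice 5 and 7, and passed the adjusted threshold in none of these fits. *Ltbp4* shares no 50-base word of its transcripts with other genes.

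The type I receptor gene *Tgfbr1* encodes the kinase that TGF-β uses, and at 16.8 per kb it was the only one of the 4 type I receptor genes above 5 per kb. Its normalized read counts were 73.4, 108, 133, 107 and 103 in young mice and ran from 96.6 over a median of 113 to 151 in old mice. Young mouse 1 lay below every old mouse and old mouse 6 above every young one, with the rest intermingled. Its log2 fold change was 0.13 ± 0.18 (SE), with an interval from -0.24 to 0.50. *Acvr1*, *Acvrl1* and *Bmpr1b*, which encode type I receptors for BMP and related ligands, gave 0.14 ± 0.37, 0.52 ± 0.59 and 0.41 ± 0.61. Without old mice 5 and 7 these 3 values were -0.12, -0.03 and -0.17.

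All 4 type II receptor genes were above 5 per kb, with *Bmpr2* at 21.6, *Tgfbr2* at 21.1, *Acvr2a* at 9.41 and *Acvr2b* at 7.48. *Bmpr2*, the BMP type II receptor gene, had 461, 251, 319, 508 and 358 normalized reads in young mice and 206 to 513 in old mice, with a median of 447. The old range took in all 5 young values, and the log2 fold change was 0.04 ± 0.26 (SE). *Tgfbr2*, the partner of *Tgfbr1*, gave 0.14 ± 0.17 (SE), with an interval from -0.23 to 0.51 that was among the narrowest of the 30. The activin type II receptor genes *Acvr2a* and *Acvr2b* gave 0.01 ± 0.33 and -0.31 ± 0.30. Of the 50-base words of *Acvr2a*, 6.98% occur on the opposite strand in its neighbour *Orc4*, the highest share among the 32 genes.

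*Eng* had normalized read counts of 310.1, 239, 425, 328 and 293 in young mice and 119 to 467 in old mice, with a median of 319. Old mice 5 and 7 lay far below all others, and old mice 2 and 3 above all young mice. This gave a log2 fold change of -0.23 ± 0.33 (SE), and one of 0.21, of the opposite sign, without old mice 5 and 7. *Tgfbr3*, which encodes betaglycan, a co-receptor that presents TGF-β to its receptors, gave 0.13 ± 0.22 (SE). Young mice spanned 174 to 223 normalized reads and old mice 142 to 319.6, with 3 old mice above every young mouse, 3 below and 1 within. *Bambi*, a pseudoreceptor without a kinase, gave -0.05 ± 0.36.

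*Smad1* was the receptor SMAD gene with the smallest p for age. Its normalized read counts were 72.8, 98.6, 97.1, 102 and 77.6 in young mice and ran from 81.2 over a median of 119.6 to 161 in old mice. In 5 of the 7 old mice it lay above every young mouse, with old mice 6 and 7 inside the young range. The means were 89.6 ± 13.4 (SD, n = 5) and 117 ± 24.4 (SD, n = 7), and the log2 fold change was 0.37 ± 0.18 (SE), with an interval from -0.01 to 0.75 and a limma adjusted p of 0.9997. With the letter in the model it was 0.39 ± 0.18, with a limma p of 0.0418 and an adjusted p of 0.912. The two-sided exact permutation test gave p = 0.0417 over all splits and p = 0.0467 within letters. The values within the letters were close to each other, 0.37 in letter A and 0.41 in letter B, and the value without old mice 5 and 7 was 0.48.

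The other receptor SMAD genes gave values nearer to 0 or below it. *Smad5*, which serves the same BMP branch, gave -0.30 ± 0.22 (SE), *Smad2* gave -0.18 ± 0.19, and *Smad3* gave 0.06 ± 0.24. Without old mice 5 and 7 these values were -0.05, -0.08 and 0.27, and the difference of these genes from *Smad1* was not tested. *Smad3* was the most abundant of them, with 195, 118, 231, 231 and 152 normalized reads in young mice and 105 to 283 in old mice, with a median of 193. Per kb, *Smad1* and *Smad5* together held between 45.0% and 57.2% of the summed level of *Smad1*, *Smad2*, *Smad3* and *Smad5* in every mouse, and the mean was 51.5% ± 3.22 (SD, n = 5) at the young age and 50.7% ± 4.69 (SD, n = 7) at the old age. This share was chosen after the values had been seen and is given without a test.

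*Smad4*, the SMAD shared by both branches, had the lowest log2 fold change of the 30 genes with age alone in the model. Its normalized read counts were 151, 129.8, 204, 179 and 134 in young mice and ran from 62.4 over a median of 129 to 195 in old mice. In 4 of the 7 old mice it lay below every young mouse, with old mice 5 and 7 lowest. That fold change was -0.39 ± 0.26 (SE), with an interval from -0.93 to 0.16 and a limma adjusted p of 0.9997. Without old mice 5 and 7 it was -0.07.

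The inhibitory SMAD gene *Smad7*, a feedback target of TGF-β, had 58.2, 61.5, 71.8, 101 and 54.1 normalized reads in young mice and 16.6 to 130.3 in old mice, with a median of 62.7. The old mice spread to both sides of the young range, 2 above and 2 below. Over all mice the log2 fold change was -0.18 ± 0.38 (SE), with -0.60 within letter A and 0.48 within letter B. A test of that difference between letters gave a limma p of 0.0493 and an adjusted p of 0.9998, and *Smad7* was the only one of the 30 genes with an unadjusted p under 0.05 there. *Smad6*, its counterpart in the BMP branch, gave -0.13 ± 0.43.

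The ubiquitin ligase gene *Smurf2* had 143, 121, 136, 119 and 124 normalized reads in young mice and 78.9 to 134 in old mice, with a median of 121. Of the old mice, 4 lay within the young range and 3 below it, with old mouse 5 lowest. *Smurf2* gave a log2 fold change of -0.17 ± 0.17 (SE; interval from -0.53 to 0.18) and *Smurf1* one of 0.07 ± 0.17 (interval from -0.29 to 0.43). *Ski*, which encodes a repressor that binds SMADs on DNA, had 237, 171, 273, 282 and 263 normalized reads in young mice and 97.2 to 364 in old mice (median 271), and its log2 fold change was -0.13 ± 0.29. *Skil*, the related SnoN gene, gave 0.14 ± 0.22, and the homeobox repressor gene *Tgif1* gave -0.12 ± 0.24. Without old mice 5 and 7 the sign turned for *Ski* (0.25) and *Tgif1* (0.15).

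*Id1* and *Id3* encode helix-loop-helix inhibitors that are widely used as readouts of BMP signalling. *Id1* had normalized read counts of 3.11, 10.6, 0.785, 5.69 and 5.29 in young mice and 1.27 to 16.7 in old mice, with a median of 3.69. Recovered reads ranged from 3 to 37 for *Id1* and from 1 to 29 for *Id3*, and each gene had 1 mouse at or under 3 reads. The ages overlapped, with 1 old mouse above every young one, and the means were 5.09 ± 3.64 (SD, n = 5) and 5.17 ± 5.27 (SD, n = 7). The two-sided exact permutation test gave p = 0.938 for *Id1* and p = 0.692 for *Id3*, so that no difference between ages was seen in either gene.

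**Figure D3:**
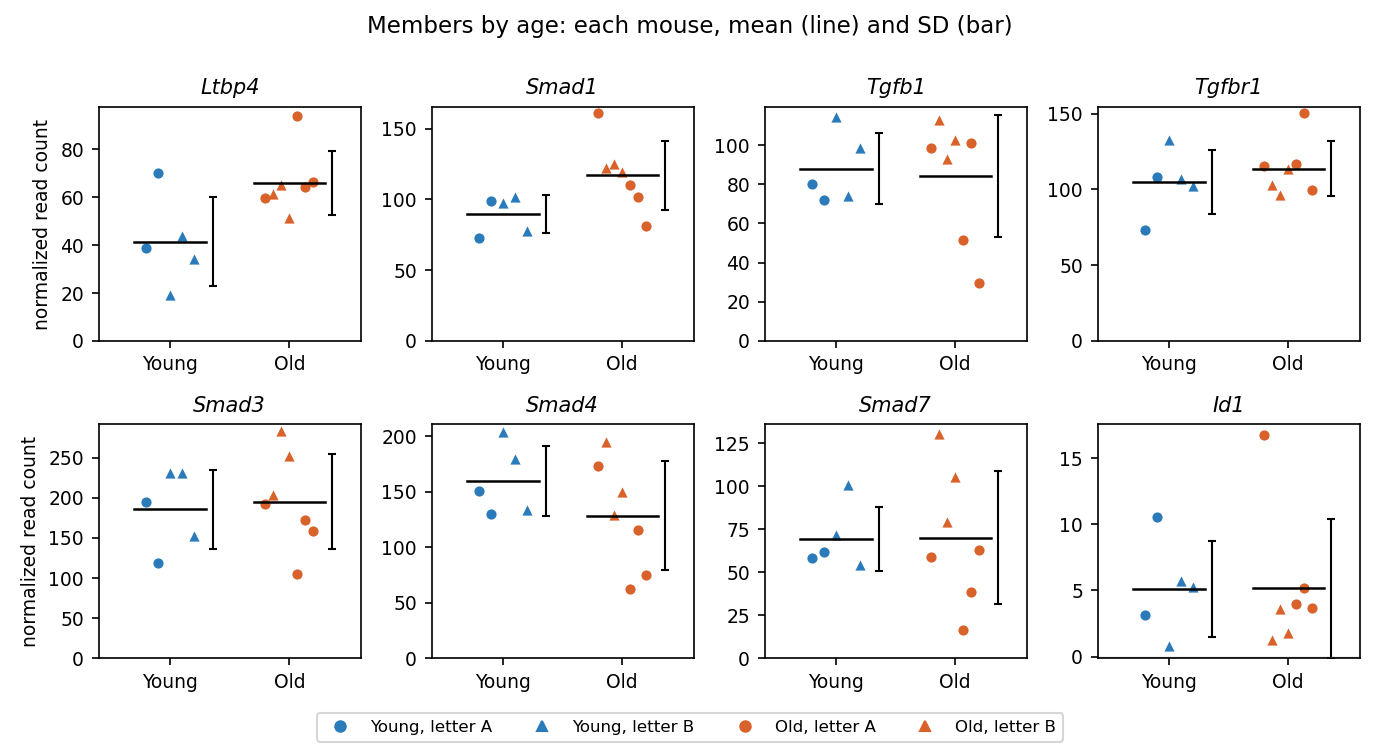
Each point is the normalized read count of 1 mouse, lines are group means and bars 1 SD, for 8 of the genes in young and old mice. All old mice lay above 4 of the 5 young mice for *Ltbp4*, 5 of 7 old mice lay above every young mouse for *Smad1*, and the ages overlapped in the other 6 panels as well.

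A wider list of 109 genes of the same pathways, among them other ligands, extracellular regulators, receptor adaptors and SMAD partners, gave 89 with a row and 68 that could be tested. With limma, 0 of the 68 passed the adjusted threshold for age and 3 had an unadjusted p under 0.05. edgeR's quasi-likelihood test called 0 and DESeq2 called 1, *Neo1*. *Neo1* encodes neogenin, a netrin receptor that also binds repulsive guidance molecules, which are BMP co-receptors. It had 56.6, 73.6, 87.9, 122 and 63.8 normalized reads in young mice and 98.4 to 224 in old mice, with a median of 160.0. In 5 of the 7 old mice it lay above every young mouse, and the log2 fold change was 0.998 ± 0.25 (SE) with a limma adjusted p of 0.256. With the letter in the model it rose by 1.11 ± 0.19 on the log2 scale, with a limma adjusted p of 0.00256, and was the only one of the 68 to pass. The study reports higher *Neo1* RNA, from its own edgeR comparison, and higher NEO1 protein in old LSK-SLAM cells. Its comparison gave likelihood ratios, which is another test than the quasi-likelihood one used here.

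*Zfyve9* encodes SARA, an endosomal anchor that brings SMAD2 and SMAD3 to the TGF-β receptor. It had 25.5, 77.4, 24.5, 21.8 and 29.97 normalized reads in young mice and 48.6 to 83.6 in old mice, with a median of 62.4. Young mouse 2, which was also the highest young mouse for *Ltbp4*, lay among the old mice, and the other 4 young mice lay below all of them. It differed by 0.93 ± 0.27 (SE) on the log2 scale with a limma adjusted p of 0.522, and without young mouse 2 it was 1.25 with a limma adjusted p of 0.0196. This mouse was singled out because it lay among the old mice, so the smaller p does not stand as a separate test. *Stub1*, which encodes a ubiquitin ligase that acts on SMADs, had 53.5, 49.0, 65.5, 46.1 and 47.0 normalized reads in young mice and 22.1 to 48.6 in old mice, with a median of 39.3. In 5 of the 7 old mice it lay below every young mouse, and the log2 fold change was -0.51 ± 0.23 (SE). *Runx3*, which encodes a SMAD-binding transcription factor, had 46.3, 38.5, 52.6, 62.8 and 48.5 normalized reads in young mice and 29.5 to 47.0 in old mice, with a median of 39.2. The ages overlapped, with 2 old mice below every young one, and *Runx3* gave -0.35 ± 0.19. Neither gene passed the limma threshold (adjusted p of 0.9997 for both).

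The letter of the mouse label gave more calls among these genes than age did. In the model with age and letter, 6 of the 30 genes were higher in letter B (20.0%, beside 10.5% of all genes) and 5 were lower (16.7%, beside 25.6% of all genes). Higher in letter B were *Ltbp3*, *Smad7*, *Eng*, *Ski*, *Smad3* and *Tgif1*, with log2 differences between 0.51 and 0.92. Lower in letter B were *Bmpr1b*, *Tgfb2*, *Bmp2*, *Ltbp1* and *Bambi*, with log2 differences between -1.93 and -0.84. The size of the differences depends on the scaling. Rescaling by median ratios moved the median over all genes from -0.09 to 0.23 and the calls over all genes from 1301 higher and 3161 lower to 3357 higher and 2389 lower. Among the 30 genes it gave 13 higher and 4 lower, and the *Bambi* call was lost there. Without old mice 5 and 7, 6 of the 11 calls remained, *Ltbp3*, *Smad7*, *Eng*, *Bmpr1b*, *Tgfb2* and *Ltbp1*, while *Bmp2* lay below the minimum mean. Over all genes, 1990 of 11444 were called in that fit, beside 4462 of 12354 with all mice. In the wider list of 68 genes, 11 were higher in letter B and 24 lower with all mice. With every library thinned to 861047 reads, 12 of the 30 genes were called, 6 higher and 6 lower in letter B. Over all genes, 3790 of 12349 were called with thinned reads.

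The direction went with the level of the gene. All 15 genes above 10 per kb had a log2 difference above 0, from 0.03 to 0.92, and 6 of them were called. All 9 tested genes below 5 per kb had a difference below 0, from -1.93 to -0.57, and 5 of them were called. The minimum mean of 10 was taken over all 12 mice, so that a low gene can pass through the letter where it is high. *Bmp2*, *Bmp7*, *Acvrl1* and *Bmpr1b* had means of 5.76, 8.10, 9.10 and 7.45 in letter B and passed through letter A. *Id1* and *Id3*, which did not pass, also had lower means in letter B (3.06 and 2.08) than in letter A (7.21 and 8.52). Over all genes tested, 16.1% of those above 10 per kb and 95.1% of those below 5 per kb lay below 0. Across genes, which share libraries and depth and are not independent replicates, Pearson's r between log2 level and letter difference was 0.85 for the 30 genes and 0.73 for 12351 genes.

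**Figure D4:**
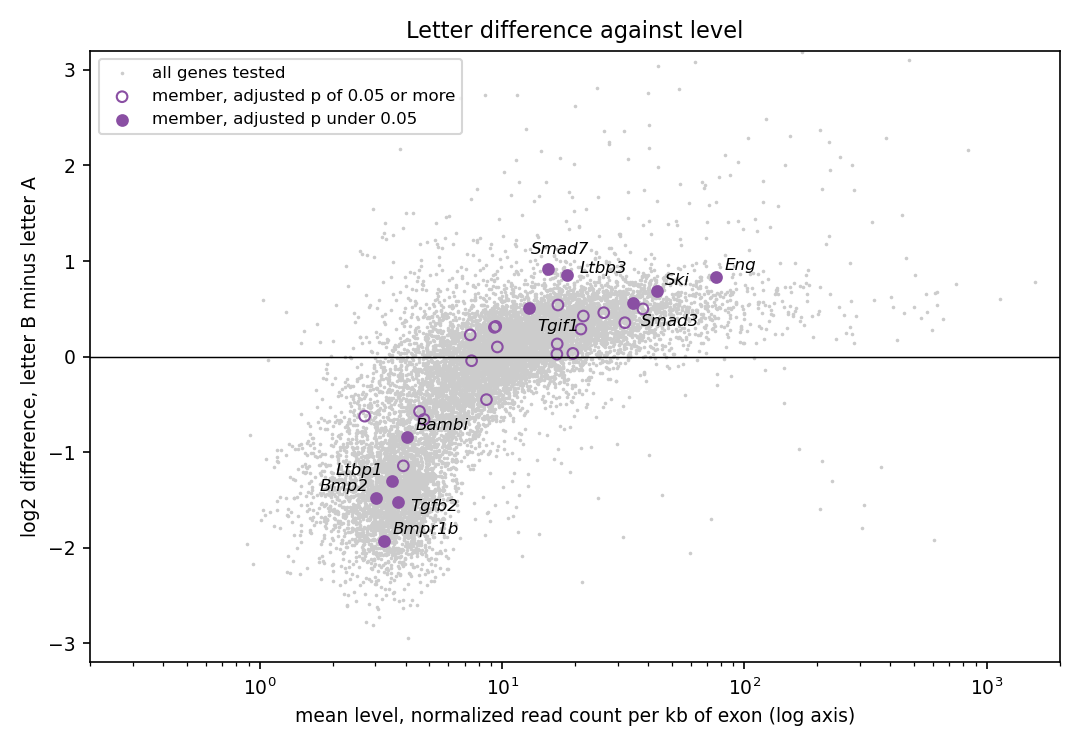
Each grey point is a tested gene and each purple point one of the 30 genes of the pathway (filled where the adjusted p was under 0.05), with the mean level per kb on a log x axis and the log2 difference of letter B minus letter A on the y axis; 35 of 12351 genes lie outside the axes. Genes below 5 per kb lie mostly below 0 and genes above 10 per kb mostly above 0, in the pathway as in the table.

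*Ltbp3* gave the smallest p of the genes higher in letter B. It ran from 72.1 over a median of 129.9 to 183 in the 6 mice of letter A and from 137 over a median of 211 to 277 in the 6 mice of letter B. The letters overlapped in the middle of the range, and the log2 difference was 0.85 ± 0.21 (SE) with a limma adjusted p of 0.00419. *Eng* ran from 119 over 247 to 319 in letter A and from 293 over 402 to 467 in letter B, overlapping between 293 and 319, with a difference of 0.84 ± 0.23 (limma adjusted p of 0.00779). Without old mice 5 and 7 the difference of *Eng* was 0.46, with a limma adjusted p of 0.0344. *Smad7* ran from 16.6 over 58.5 to 62.7 in letter A and from 54.1 over 89.8 to 130.3 in letter B, and differed by 0.92 ± 0.27 (limma adjusted p of 0.0115).

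*Bmpr1b* was the one gene of the 30 whose letters did not overlap. It ran from 15.8 over a median of 28.8 to 49.7 in letter A and from 2.55 over 8.36 to 10.01 in letter B. Its mean was 31.3 in letter A and 7.45 in letter B, so that it passed the minimum mean of 10 only through letter A. The difference was -1.93 ± 0.38 (SE) with a limma adjusted p of 0.000787, and the two-sided exact permutation test gave p = 0.00216, the smallest the 924 splits can give. Over all genes, 7.33% were lower in letter B without overlap and 3.16% were higher, beside 1 and 0 of the 30. *Ltbp1* ran from 31.2 over 46.8 to 86.0 in letter A and from 10.9 over 19.5 to 45.8 in letter B, with a difference of -1.31 ± 0.29. *Tgfb2* ran from 12.8 over 32.3 to 50.5 in letter A and from 5.57 over 7.43 to 21.2 in letter B, with a difference of -1.53 ± 0.39, and both genes overlapped between letters in part of their range. The differences of *Ltbp1* and *Tgfb2* had limma adjusted p-values of 0.00197 and 0.00451.

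**Figure D5:**
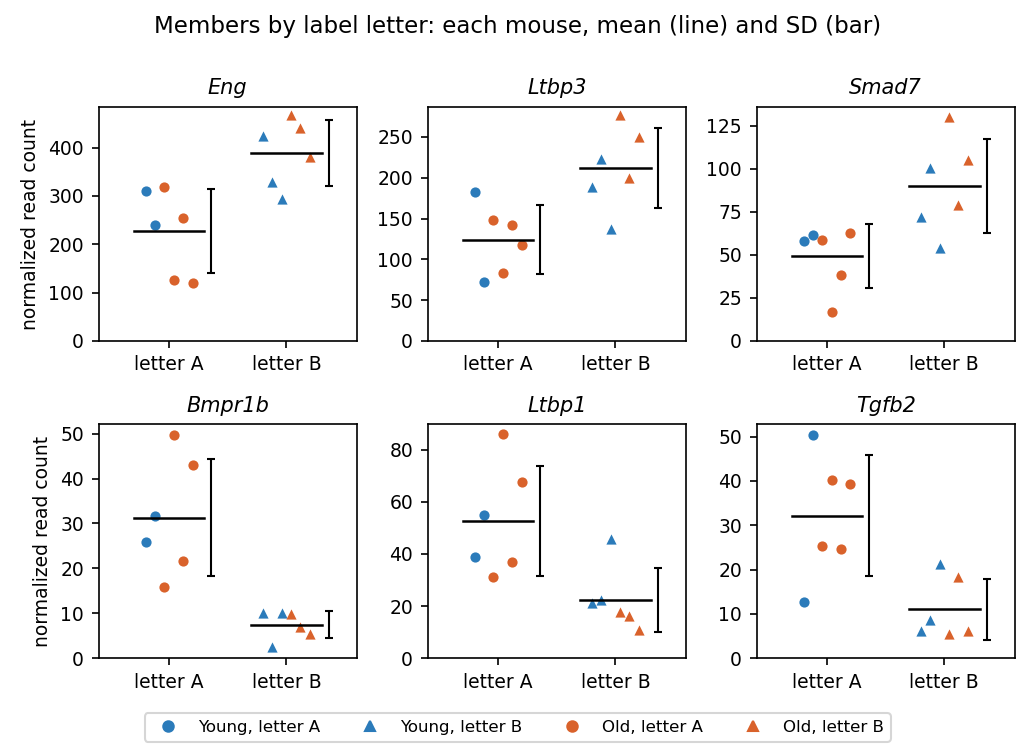
Each point is the normalized read count of 1 mouse by label letter, with blue for young and orange for old mice, lines for means and bars for 1 SD. *Eng*, *Ltbp3* and *Smad7* were higher in letter B with some overlap, *Bmpr1b* was lower in letter B with none, and *Ltbp1* and *Tgfb2* were lower with overlap.

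Markers listed for other cell types, some of which HSCs may express as well, were also mostly lower in letter B. Of 44 such markers with a row, from 7 lists, 36 had a lower mean in letter B, and of the 36 tested 17 were called lower and 1 higher. Over all genes tested, 25.6% were called lower and 10.5% higher. Many of these markers were low genes, and of all genes tested below 5 per kb 95.1% had a log2 difference below 0. The summed normalized read count of 7 stromal markers ran from 186 to 407 in letter A and from 70.6 to 216 in letter B, and 5 of the 6 tested were called lower. For 5 B cell markers the sums were 89.3 to 121 and 48.0 to 93.1, and for 5 T cell markers 43.8 to 138 and 16.3 to 66.1. The 9 granulocyte and monocyte markers summed to 206 to 1881 in letter A and 154 to 397 in letter B, and the 6 erythroid markers to 111 to 681 and 65.3 to 224. The 6 endothelial markers (301 to 396 and 302 to 389.8) and the 6 megakaryocyte markers (366 to 754 and 479 to 915) overlapped between letters. *Cd3e* and the stromal marker *Acta2* were at 0 in at least 1 mouse, and no marker was at 0 in every mouse. The part of other cells in the letter differences was not tested.

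Against age, the same markers gave no call. With limma 0 of the 36 passed the adjusted threshold with or without the letter in the model, where 4 and 3 had an unadjusted p under 0.05, and edgeR's quasi-likelihood test and DESeq2 called 0. The summed megakaryocyte markers were higher in old mice (437 to 915, median 734) than in young mice (366 to 610.2, median 479), with a two-sided exact permutation p of 0.0455. The markers of this list differed in direction, and none passed the limma threshold (adjusted p of 0.78 for *Vwf* and 0.796 for *Pf4*). *Vwf*, the largest part of the sum, was at 183 to 341 in young mice and at 251 to 710.3 in old ones (log2 fold change 0.77). The study also speaks of *Vwf*-positive HSCs, so *Vwf* is not a marker of other cells alone. Per kb of exon its mean was 25.6, below *Pf4* at 35.6 and *Gp9* at 25.8. *Pf4* was at 13.5 to 79.0 in young mice and at 3.59 to 21.2 in old ones (-1.33). *Gp9* gave 0.38, and *Itga2b* (0.07) and *Gp6* (0.09) lay near 0. The summed *Cd34*, *Flt3* and *Cd48*, which mark progenitors, ran from 167 to 293 in young mice and from 97.99 to 139 in old mice without overlap (two-sided exact permutation p = 0.00126, the smallest possible), and *Cd34* passed with the letter in the model (log2 fold change -0.99, limma adjusted p of 0.00856). The part of these shifts in the values of *Ltbp4* and *Smad1* was not tested.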

How the data were processed

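LSK-SLAM cells of 5 young and 7 old mice were profiled by RNA-seq. The authors deposited 1 table of normalized read counts, a signal per gene and mouse made by dividing reads by a scaled library size. The submitters' processing notes name FastQC 0.11.8, STAR 2.5.4b and edgeR 3.24.3 and the build mm10. The counting tool and the annotation are not given in the sources used here. A second deposited table holds the authors' own comparison (fold changes, CPM, likelihood ratios, p-values and FDR) and was not used. Dividing each column by the value of 1 read gave whole reads for 100% of values (tolerance 0.01 reads), 0.861 to 5.12 M per mouse, and shallow libraries carry the larger counting error.

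Old and young mice, and the label letters, were compared with limma 3.58.1 in R 4.3.3, using lmFit and then eBayes with a trend, on log2(value + 1), so that fold changes of low genes are understated, over genes with a mean of at least 10. P-values were adjusted by Benjamini-Hochberg over all 12354 genes tested, and a gene was called at an adjusted p under 0.05. The deposited values are normalized, so limma was the main test, and edgeR 4.0.16 and DESeq2 1.42.0 on the recovered reads served as alternatives. Single values were compared by two-sided exact permutation tests of mean log2 values, where the smallest p is 0.00126 for age and 0.00216 for the letter. The limma p-values set a difference against the spread between these mice, moderated across genes. With age alone in the model that spread includes differences between letters. GENCODE vM21 gave exon lengths and the 50-base words that genes share, and held 18745 of the 18762 identifiers. Procedures were tested on simulated data. Python 3.11.15, numpy 2.4.6, scipy 1.17.1, pandas 2.3.3 and matplotlib 3.10.9 were used for the rest.

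The 41 genes, their roles and the wider lists were chosen with earlier results of these data known. Each gene was named under its role. Values of every young mouse were given for genes with an unadjusted p under 0.05 for age in either model, for the gene of each role with the highest level per kb, and for the wider list for genes called in either model and the 2 of smallest p in each direction. For the letter, the 3 genes of smallest p in each direction were given in full. Alternatives were other pseudocounts and minimum means, no trend, median ratio scaling, thinned reads, the count tests, the letter as a covariate or either letter alone, a replicate block, and each mouse left out. Fits without old mice 5 and 7, an age by letter term, and the letter model with each mouse left out, thinned or rescaled were added after the data were seen.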

Additional observations from a re-analysis of the deposited data

Results flagged for a closer look

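In 8 of 72 groups of values, 1 mouse stood further from the rest of its age group than Dixon's test allows at 95%, where chance alone gives about 1 in 20. In old mice, *Ltbp4* was at 93.9 in mouse 5 against 51.3 to 66.4 in the others, *Smad6* at 34.7 in mouse 5 against 7.84 to 14.8, *Tgfbr1* at 151 in mouse 6 against 96.6 to 117, *Acvr2a* at 14.8 in mouse 7 against 49.7 to 69.9, and *Id1* at 16.7 in mouse 1 against 1.27 to 5.19. All 5 values came from mice of letter A. In young mice, *Tgif1* was at 48.1 in mouse 2 against 78.4 to 85.2, *Zfyve9* at 77.4 in mouse 2 against 21.8 to 29.97, and *Acvr1* at 29.4 in mouse 4 against 14.5 to 18.2. Young mouse 2 carried letter A and young mouse 4 letter B.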

How the results depend on the processing

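No gene of the pathway was called for age in any of the 44 alternatives, 0 to 0 when each mouse was left out. The sign of the log2 fold change held in all alternatives for 8 of the 30 genes, among them *Ltbp4*, *Smad1*, *Smad4*, *Smad5* and *Tgfbr2*, and turned in at least 1 for 22. The median of the 30 stayed within the spread between mice (SD 0.16), from -0.03 to 0.09 when 1 mouse was left out and 0.16 without old mice 5 and 7. Deviations of same-numbered young and old mice correlated at 0.18, 0.40 and 0.61 in the 3 pairs of 1 letter and at -0.56 and 0.04 in the 2 pairs of mixed letters, so that letter and number cannot be told apart there, and the numbers were not taken to pair mice. A replicate block over replicates 1 to 5 called 0 genes of the pathway and 1 of the wider list, *Neo1*, with a median of 0.04.

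Young and old values of 0 to 1 genes separated when 1 mouse was left out (*Ltbp4* without young mouse 2). In the wider list the calls numbered 0 to 1 when 1 mouse was left out (*Zfyve9* without young mouse 2) and 1 to 2 when that was done with the letter in the model. They numbered 1 with DESeq2, with the letter as a covariate, with edgeR and the letter, with the letter and thinned reads or median ratio scaling, and without old mice 5 and 7 with or without the letter, and 2 in letter B alone (*Neo1* and *Zfyve9*). For the letter, 11 genes were called in the main fit. The calls numbered 7 at a minimum mean of 20, 7 without the trend, 17 under median ratio scaling and 12 with thinned reads. They numbered 6 without old mice 5 and 7, and 6 to 16 when 1 mouse was left out, with the fewest without young mouse 2 or old mouse 4. Letter calls over all genes numbered 4462 in the main fit, and 2232, 3845, 5746 and 3790 in these alternatives in the same order. The counts were 1990 without old mice 5 and 7 and 2817 to 5014 when 1 mouse was left out. Over all genes, 13 were called for age (3 to 32 with 1 mouse left out), 37 with the letter (23 to 78), 57 with DESeq2, 18 with edgeR, 5 under median ratio scaling, 2 without the trend, 3 in letter A alone, 98 in letter B alone 49 without old mice 5 and 7 and 125 without them with the letter. The causes were not tested. Genes below 5 per kb rest on few reads, and for 7 of the 9 tested (not *Acvr1* and *Bambi*) the interval for age reached past a 2-fold change.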
